A study of Caenorhabditis elegans with 2 samples.

Results

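The strong promoter regions described here are 663 stretches of the autosomes where PAT-9 chromatin immunoprecipitation gave a high score just upstream of a single protein-coding gene. They were drawn from the 30000 regions that the authors called on both replicates together. The 3000 regions with the highest signal value were taken, and 2372 of them had their summit on an autosome. Of these, 241 were set aside because a gene for tRNA, rRNA, snRNA or snoRNA lay within 200 bp of the summit. A further 1169 lay upstream of no gene and 299 lay upstream of several genes. The remaining 663 had the summit 0 to 1000 bp upstream of a transcript 5′ end of exactly 1 protein-coding gene, and they belong to 629 genes. The signal value therefore chose these regions, and the values given for it below are a description with no test. In the pooled list, 5926 regions met the same location rule at any rank, so the strong regions are 11.2% of them, and the other 5263 are called weaker promoter regions below.

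The study has 1 group with 2 biological replicates, and no second condition to set it against. Whole late C. elegans embryos, labelled with an age of 3 hours and of mixed sex, were collected from eggs of strain RW12085 after bleaching, and sonicated chromatin was immunoprecipitated. The labels disagree on the antibody, given as anti-GFP in one field and by the name pat-9 in another, and on the tag: the source names an mNG and 3xFlag insertion made at pat-9 on chromosome X by CRISPR, while other fields speak of a fusion with eGFP or of GFP-FLAG at the C terminus. A control library was used by the authors and was not analysed here. Every embryo carries the tagged gene, no untagged strain is part of these samples, and chromatin of all tissues was mixed. The signal value is the authors' enrichment score for a region, on a scale that the sources used here do not define.

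PAT-9 is a zinc finger transcription factor that body wall muscle of the worm embryo needs in order to form sarcomeres. A promoter is the stretch before a gene where transcription factors and RNA polymerase assemble. Many worm transcripts lose their first bases to a spliced leader, so an annotated transcript 5′ end can lie downstream of the true start of transcription. Regions bound by many different factors at once are common at promoters of genes that all cells use, and a strong score in a single experiment does not tell such a region from one that the named factor alone occupies.

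The sequence at the summit of 5 of the strongest regions is printed first, because the base composition and words described below can be read in them. Each line holds the summit base with 50 bases on each side, read 5′ to 3′ on the strand of the gene, from the RefSeq sequence of the ce11 assembly. Capitals mark bases inside a match, on either strand, to 1 of the 10 six-base words that exceeded their flanks most.
K12H4.5 (chrIII:8043911-8044011, + strand): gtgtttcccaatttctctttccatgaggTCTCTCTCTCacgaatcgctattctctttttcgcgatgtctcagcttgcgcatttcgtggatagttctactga
rpl-3 (chrIII:3867535-3867635, + strand): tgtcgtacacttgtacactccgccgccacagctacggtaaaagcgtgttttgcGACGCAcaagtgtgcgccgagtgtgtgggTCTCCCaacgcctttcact
vig-1 (chrII:1320584-1320684, + strand): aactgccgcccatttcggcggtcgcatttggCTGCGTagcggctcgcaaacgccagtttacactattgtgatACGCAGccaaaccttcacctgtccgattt
cdc-48.1 (chrII:10563536-10563636, - strand): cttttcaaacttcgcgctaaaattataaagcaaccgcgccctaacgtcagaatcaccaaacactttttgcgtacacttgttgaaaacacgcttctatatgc
ost-1 (chrIV:1108193-1108293, + strand): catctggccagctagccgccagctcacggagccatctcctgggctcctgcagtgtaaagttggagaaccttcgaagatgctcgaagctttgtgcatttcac

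The line for rpl-3, which encodes a protein of the large ribosomal subunit, holds GACGCA and, further on, TCTCCC, which is GGGAGA on the other strand. The line for K12H4.5, whose product RefSeq lists as an uncharacterized protein, holds a run of CT repeats. The lines for cdc-48.1, encoding a AAA ATPase that unfolds ubiquitylated proteins, and for ost-1, encoding the collagen-binding matrix glycoprotein SPARC, hold no match to a leading word.

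The signal value of the 663 regions ran between 59.6 and 593, with a median of 76.1 and quartiles of 65.5 and 94.0. The weaker promoter regions ran between 23.9 and 59.5, with a median of 33.2. K12H4.5 led with 593 in the pooled list, 221 in replicate 1 and 371 in replicate 2. The promoter of rpl-3 followed with 562 pooled, 161 in replicate 1 and 402 in replicate 2. Both stood well above vig-1, which encodes an RNA-binding protein of small RNA complexes and had 384 pooled, 143 in replicate 1 and 237 in replicate 2. No other strong promoter region passed 347, the value of K05C4.2, which encodes a homologue of the endoplasmic reticulum protein jagunal.

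The rest of the 25 highest regions follow, with the role of the gene where it is known. Protein quality control was represented by cdc-48.1 at 303 and by hsp-1, a constitutive Hsp70 chaperone, at 226. Protein synthesis was represented by eif-3.C, an initiation factor subunit, at 273 and by rpl-35, another protein of the large ribosomal subunit, at 261. Passage through the nuclear envelope was represented by imb-3, an importin, at 271 and by npp-8, a nucleoporin, at 248. RNA processing was represented by plrg-1, a spliceosome component, at 238 and by C46F11.4, listed as an RNA helicase, at 252.

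Chromatin factors in the same set were swsn-3, a subunit of a nucleosome remodelling complex, at 206 and cbp-1, a histone acetyltransferase, at 205. The kinase gene mrck-1 had 302 and ost-1 had 280. The remaining names were tos-1 at 290, ccdc-47 at 283, W01D2.3 at 276, T24B8.3 at 232, Y39E4B.6 at 230, K05C4.7 at 225, M01F1.9 at 216, cox-5B, a cytochrome c oxidase subunit, at 211, and F08G2.5 at 208. No gene of the sarcomere or muscle attachment lists was among these 25. Those lists held 9 and 13 of all 663 strong regions. At that share few would be met among 25 regions, so their absence tells little.

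At the lower edge, the last regions taken were those of trpp-11 at 59.69, F32D1.8 at 59.65 and ZC477.4 at 59.59. The first regions left out that met the location rule were those of pqn-70 at 59.53, Y48C3A.5 at 59.52 and unc-108 at 59.51. The scores on both sides of the edge were thus nearly equal.

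The optimal list, which the authors derived from the replicate and pooled lists by IDR, a measure of reproducibility in rank, consists of the strongest pooled regions. It contains 140 of the 663 strong promoter regions (21.1%), beside 2.36% of all promoter regions with this location and 2.45% of all pooled regions. This share therefore follows the signal value that chose the set. A width of 430 bp was recorded for 636 of the 663 regions. The other 27 were narrower, between 115 and 341 bp, and all 27 were on the optimal list.

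The replicates did not order the strong promoter regions alike. A region of the replicate 1 list overlapped 644 of the 663 by at least 1 bp, and 400 (60.3%) overlapped 1 of its 3000 strongest, beside 13.9% of all promoter regions of this location. A region of the replicate 2 list overlapped 659, and 508 (76.6%) overlapped 1 of its 3000 strongest, beside 14.3%. Both conditions held for 287 (43.3%), beside 6.33%, and neither held for 42. Because the pooled list was called on the alignments of these same replicates, the overlap is a description of how the pooled score was built up. The Spearman correlation of the replicate signal values over the 640 regions found in both was 0.198, with no p given since the regions were chosen by the pooled score and share the libraries.

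**Figure D1:**
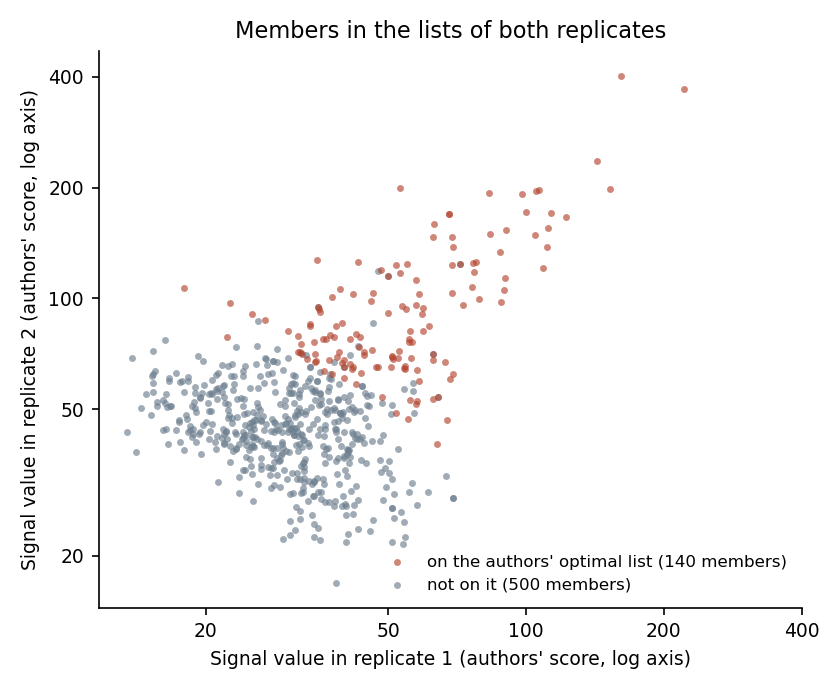
Signal value in replicate 2 (vertical, log axis) against replicate 1 (horizontal, log axis) for the 640 strong promoter regions found in both lists; each point is a region, coloured by membership of the authors' optimal list. K12H4.5 (221 and 371) and rpl-3 (161 and 402), both on the optimal list, stand at the upper right; regions on and off that list overlap at lower values of either replicate.

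Of the 140 regions on the optimal list, 135 were among the 3000 strongest of both replicates. The exceptions were pdhk-2, F53C11.5, W03F8.4, nsun-1 and npp-19, which ranked between 262 and 483 in replicate 2 and between 4619 and 16266 in replicate 1. The widest gaps toward replicate 1 were those of pxf-1, ranked 1155 there and 26781 in replicate 2, R12B2.7, ranked 424 and 16599, and elks-1, ranked 483 and 16105. The widest gaps toward replicate 2 were those of dld-1, ranked 655 there and 27972 in replicate 1, T28F4.4, ranked 2162 and 29381, and Y39B6A.43, ranked 1433 and 25825. In replicate 2, no region overlapped those of cutl-20, Y39G10AR.11, W05B5.1 and hgap-2. Among the 3000 strongest of replicate 1 alone were 113 of the 663, and of replicate 2 alone 221. The pooled value of such a region may rest more on 1 library than on the other. How far it does cannot be read from the scores, since different lists share no common scale. A value below that names no replicate is the pooled one.

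The strong regions sat closer to the transcript 5′ end than the weaker ones. Their summits lay a median of 291 bp upstream (quartiles 149 and 603), against 434 bp (200 and 703.5) for the weaker promoter regions. The first 300 bp held 338 of the 663 summits, or 50.98% with a Wilson 95% interval of 47.2 to 54.8%, against 36.8% (35.5 to 38.1%) of the weaker ones. The fullest 100 bp bin was 100 to 199 bp, with 129 summits (19.5%). Past 400 bp the strong regions were thinner in each bin than the weaker ones. The intervals cover counting error alone, and they treat regions as independent, which the 30 strong regions that overlap another strong region of the same set are not. The distance hardly followed the score within the set (Spearman correlation -0.07 over 663 regions).

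**Figure D2:**
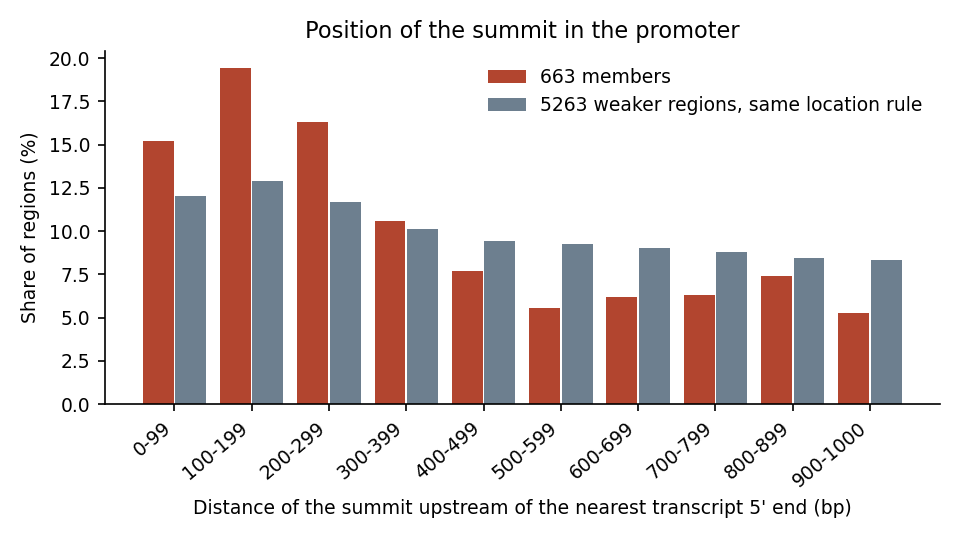
Share of regions (vertical, %) by distance of the summit upstream of the nearest transcript 5′ end (horizontal, 100 bp bins); bars to the left in each pair are the 663 strong promoter regions and bars to the right the 5263 weaker ones. The strong regions peak at 19.5% in the 100 to 199 bp bin and fall to 5.28% in the last bin.

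Most of the strong summits lay between genes. In 445 of 663 (67.1%) the summit was inside no protein-coding gene, against 49.95% of the weaker promoter regions. In 138 (20.8%) it was inside the gene it was assigned to, upstream of a later alternative 5′ end, against 25.2%. In 85 (12.8%) it was inside another protein-coding gene, against 26.0%. An annotated ncRNA, lincRNA or antisense RNA gene lay within 200 bp of 84 summits (12.7%), against 6.10% of the weaker ones, and of 26.5% of the 215 equally strong single-gene promoter regions on chromosome X. Chromosome I held 165 regions, II held 140, III held 132, IV held 109 and V held 117.

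GC content rose toward the summit. The median GC content of the summit window, which spans 50 bases on each side of the summit, was 46.5%, against 37.1% in the windows centred 200 bp away on either side. The mean at the summit was 46.7 ± 8.66% (SD over 663 regions). In the weaker promoter regions the medians were 39.6% at the summit and 36.6% in the flanks. The summit exceeded its own flanks in 519 of 663 strong regions (78.3%, Wilson interval 74.98 to 81.3%), against 58.3% of the weaker ones. Strong single-gene promoters of chromosome X had 50.5% at the summit and 38.1% in the flanks, and strong autosomal regions upstream of several genes had 46.5% and 35.1%.

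The GC content followed the score within the set. It was 53.0% in the 36 regions up to rank 250 of the pooled list, 49.5% in the other 104 on the optimal list, 46.5% in the next 198 up to rank 1500, 45.5% in the next 166 up to rank 2250 and 43.6% in the last 159. The flanks ran the other way, between 33.7% in the highest of these bands and 38.1% in the lowest. The Spearman correlation of signal and summit GC was 0.25 over 663 regions that share the libraries of both replicates, and is given as a description. GC content can change how a fragment is amplified and sequenced, and its part in the signal was not tested.

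**Figure D3:**
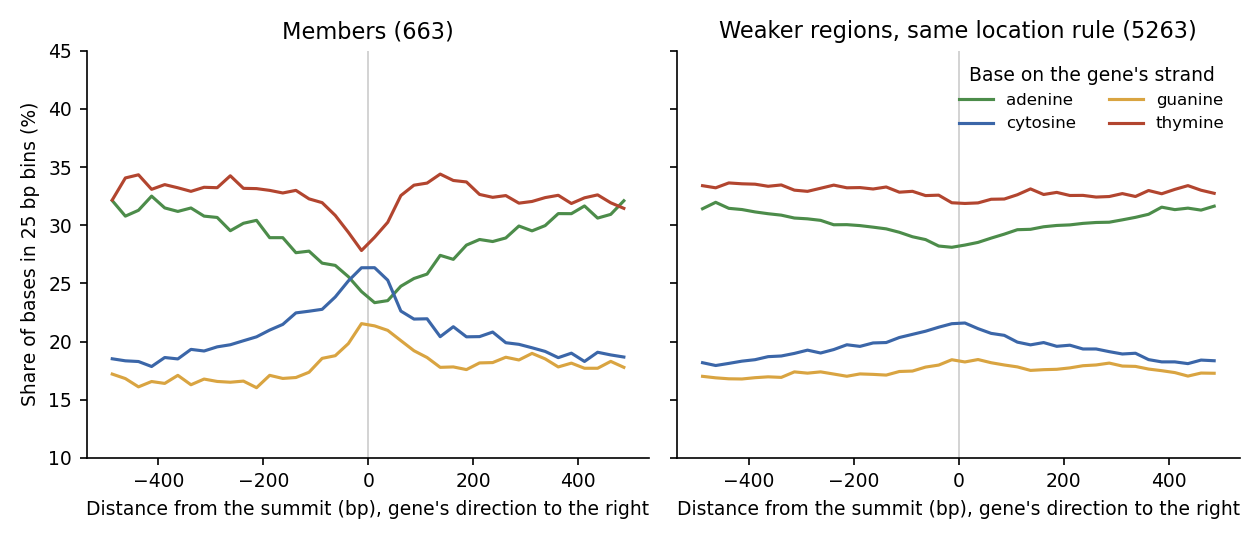
Share of each base (vertical, %) in 25 bp bins by distance from the summit (horizontal, bp, oriented so that the gene lies to the right), for the 663 strong promoter regions on the left and the 5263 weaker ones on the right. Cytosine and guanine reach 26.3% and 21.5% at the strong summits, where thymine falls to 27.8%; the same curves are shallower at the weaker summits.

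The composition was not the same on both strands. Read on the strand of the gene, cytosine was the more common of the G and C pair in every 25 bp bin within 500 bp of the strong summits, and thymine exceeded adenine over nearly the whole stretch. Just downstream of the summit, at 50 to 74 bp, thymine was at 32.5% and adenine at 24.8%. The weaker regions had 32.2% and 28.9% there. In the weaker regions too, cytosine exceeded guanine and thymine exceeded adenine in every bin, so this asymmetry is not particular to the strong set.

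Of the 2080 six-base words counted on either strand, the one with the largest excess at the summit was GAGAGA. It lay in the summit window of 167 of 663 strong regions (25.2%), against 12.1% of their flank windows and 9.99% of the weaker summits. It was in 27.9% of the strong single-gene promoters of chromosome X, 21.9% of the strong autosomal regions outside promoters and 15.1% of those upstream of several genes. AGAGAG, which overlaps it, followed the same pattern with 19.9%, against 10.6% and 8.42%. GGGAGA and CTCCTC were also among the 10 leading words, with 13.0% and 12.7%, against 4.68% and 4.75% in the flanks. On the gene's strand the purine form GAGAGA occurred in 61 strong summit windows and the pyrimidine form TCTCTC in 111, and the weaker summits had 177 and 359. The GA repeat was not tied to the exact summit: its share was 8.30% in the bin 76 to 100 bp upstream, 8.45% in the first 25 bp downstream and 8.90% at 50 to 74 bp downstream.

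The other leading words held CG. GACGCA lay in 91 strong windows (13.7%), against 3.54% of flanks and 4.37% of weaker summits, and in 9.30% of strong chromosome X promoters, 8.30% of strong autosomal regions outside promoters and 14.0% of those upstream of several genes. ACGCAG lay in 88 (13.3%), against 3.54% and 4.22%. ACGCGC lay in 74 (11.2%), against 2.49% and 3.76%. CGCGCA (11.9%), AGACGC (11.8%) and AACGCG (9.95%) completed the 10. At least 1 of the 10 was present in 409 strong windows (61.7%), against 28.1% of flank windows and 29.8% of weaker summits. Of these words, ACGCAG and ACGCGC were followed along the region, and both were more concentrated at the summit than the GA repeat. ACGCAG was found in 5.13% of regions in the last 25 bp before the summit. It was in 0.603% at 200 to 176 bp before it, and in 1.51% and 1.66% in the bins on either side. ACGCGC was in 4.83% in the last 25 bp before the summit and in 0.754% at 200 to 176 bp. The GA repeat also fell with distance, to 1.51% at 500 to 476 bp before the summit.

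Base composition alone can raise the count of a GC-rich word, so the words were also counted within 1 band of GC content. Windows were not matched inside the band. Among windows with 45 to 55% GC, 264 were strong and 1170 weaker. GAGAGA was in 29.2% of those strong windows, against 13.2% of the weaker ones. GACGCA was in 14.0% against 7.09%, ACGCAG in 17.4% against 7.52%, and ACGCGC in 13.6% against 6.50%. The words of A and T that fell most below their flanks were AAAAAT (25.2%, against 44.9% in flanks), AAAATT (17.9%, against 37.3%), AAAAAA (21.9%, against 38.8%), TGAAAA (16.1%, against 33.0%) and AAATTA (7.99%, against 22.2%). The E-box CAGCTG, the type bound by myogenic bHLH factors, was in 4.83% of strong summit windows, against 1.28% of flanks and 2.38% of weaker summits; in the 45 to 55% GC band it was in 3.41% against 3.504%. TATAAA was in 5.73%, against 10.9% of flanks. GTTCGA, a word of the internal promoter of tRNA genes, was in 3.02%, against 3.17% of flanks.

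Several of the CG words joined into longer ones. The eight-base AGACGCAG was in 49 strong summit windows (7.39%), against 1.81% of flanks and 2.30% of weaker summits, and in 5.73% of the 1169 strong autosomal regions outside promoters. AAACGCGC was in 33 (4.98%), against 0.453% of flanks, 0.912% of weaker summits and 0.599% of the strong regions outside promoters. These longer words were chosen after their counts were seen. The windows of 2 regions that hold AGACGCAG are printed to show the joined word in place, with capitals as above.
C34C12.8 (chrIII:3460168-3460268, + strand): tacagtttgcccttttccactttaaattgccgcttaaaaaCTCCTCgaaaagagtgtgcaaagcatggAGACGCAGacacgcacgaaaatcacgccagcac
scyl-1 (chrV:13041804-13041904, - strand): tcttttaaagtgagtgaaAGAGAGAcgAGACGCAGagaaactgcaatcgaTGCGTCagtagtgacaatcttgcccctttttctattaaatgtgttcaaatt

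In the line for C34C12.8, whose product RefSeq lists as a mitochondrial GrpE homologue, the joined word stands alone in the later part. In the line for scyl-1, listed as a protein with a kinase domain, a GA repeat precedes it and TGCGTC, a piece of it on the other strand, follows.

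A longer pattern stood out in the narrowest regions. Of the 27 strong promoter regions narrower than 430 bp, 11 (40.7%) held TTGCAA at the summit, against 40 of the 636 regions of 430 bp (6.29%) and 4.01% of the weaker summits. Because all 27 were on the optimal list, this comparison does not separate width from score. Reading the windows of the narrow regions showed a pair of four-base words, GTGC and then TTGC, with 7 bases between them. This pair was found in 26 of the 663 strong windows (3.92%, Wilson interval 2.69 to 5.68%), against 3 of 1326 flank windows and 16 of 5263 weaker summits (0.304%). It was in 35 of the 299 strong autosomal regions upstream of several genes (11.7%), in 7 of the 1169 outside promoters (0.599%) and in 0 of the 215 strong single-gene promoters of chromosome X, which allows up to 1.40% at 3 counts. Among regions chosen by the 3000 highest values of replicate 1 alone, without replicate 2, its share was 2.54%, and without replicate 1 it was 3.52%. With 6 or 8 bases between, the same words were found in 7 and 1 strong windows. In 23 of the 26 the pair read GTGC first on the strand of the gene, and the exceptions were T22F3.2, cpf-2 and 1 of the 2 regions of vps-39. In the weaker windows it read so in 7 and the other way in 9. The pair was defined on these windows, so its counts are a description and not a test.

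The pair is shown in 10 regions as 44 bases on the gene's strand that start 4 bases before GTGC. All 10 also hold a second copy of TTGC, which 19 of the 26 windows with the pair did. Capitals mark GTGC, the first TTGC and, where present, a further TTGC that starts 17 to 19 bases after the end of the first.
ccdc-47 (chrIII:3916806-3916849, + strand): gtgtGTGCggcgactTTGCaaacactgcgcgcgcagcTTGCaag
C46F11.4 (chrIII:3664409-3664452, - strand): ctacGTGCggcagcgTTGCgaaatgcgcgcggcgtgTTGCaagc
plrg-1 (chrV:10808082-10808125, - strand): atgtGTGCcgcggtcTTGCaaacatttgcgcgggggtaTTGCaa
swsn-3 (chrIII:2768821-2768864, - strand): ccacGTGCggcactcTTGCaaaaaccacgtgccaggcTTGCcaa
scc-2 (chrII:255353-255396, - strand): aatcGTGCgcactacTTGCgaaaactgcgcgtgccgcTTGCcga
R148.3 (chrIII:3175157-3175200, + strand): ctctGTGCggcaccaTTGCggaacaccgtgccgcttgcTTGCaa
usp-4 (chrIV:6756650-6756693, + strand): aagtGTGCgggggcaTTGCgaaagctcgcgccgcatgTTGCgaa
F39G3.3 (chrV:4731575-4731618, + strand): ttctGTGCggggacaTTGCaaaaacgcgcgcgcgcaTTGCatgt
vha-9 (chrII:10303925-10303968, - strand): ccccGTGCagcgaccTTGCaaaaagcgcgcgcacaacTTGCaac
rrsr-1 (chrV:14425283-14425326, - strand): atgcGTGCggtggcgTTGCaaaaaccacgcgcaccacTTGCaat

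Between the copies of TTGC most of the printed lines hold a run of CG steps, and after the first TTGC most continue with AAA or GAAA. Among regions without a second copy, which are not printed, npp-8, gtsf-1 and Y97E10AR.1 continued otherwise, and F41H10.3 and ubc-9 with GAAA. The second copy and its distance were also defined after these windows had been read, so the counts of this form, in windows and over the genome, are a description and not a test. The form with the second copy occurred in 19 strong windows, in 1 of 5263 weaker ones and in 20 of the 299 strong autosomal regions upstream of several genes (6.69%). It was found in 0 of 1169 strong autosomal regions outside promoters and 0 of 215 strong single-gene promoters of chromosome X, which allows shares of up to 0.257% and 1.40% at 3 counts. Over the whole genome the form with both copies was counted 100 times on chromosomes I to V and X, and 44 of these lay inside 1 of the 3000 strongest pooled regions, which cover 1.22% of the bases. The GTGC and TTGC pair, with or without the second copy, was counted 2428 times, with 104 (4.28%) inside such a region.

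The genes behind these 26 regions number 25. They include K05C4.2 at 347, ccdc-47 at 283, C46F11.4 at 252, npp-8 at 248, plrg-1 at 238, K05C4.7 at 225, swsn-3 at 206 and scc-2, the loader of cohesin onto chromosomes, at 205. They also include dlst-1, a subunit of the 2-oxoglutarate dehydrogenase complex, at 192, usp-4, a ubiquitin hydrolase, at 191, set-25, a histone methyltransferase, at 122, vha-9, a subunit of the vacuolar proton pump, at 93.0, and ubc-9, the SUMO-conjugating enzyme, at 60.6, which ranked 20757 in replicate 1 and 1254 in replicate 2. None of the 26 was in a muscle list, beside 33 of all 663 strong regions. At that share few would be met among 26 regions, so their absence tells little. Their summits lay a median of 181 bp upstream. The pair was in 10 of the 27 narrow regions (37.0%) and in 16 of 636 regions of full width (2.52%). It was defined after windows of narrow regions had been read, so its excess there is partly built in. All 27 were also on the optimal list, and the pair was in 12.9% of the 140 strong promoter regions of that list. The comparison therefore does not separate width from score. The regions of set-25 on chromosome III and the higher-scoring vps-39 region on V hold the same 44 bases around the pair. The windows of set-25 and both vps-39 regions, 3 of the 26 with the pair, hold at least 50 bases found elsewhere in the genome. Of the 663 strong windows, 28 hold such a copied stretch of 50 bases.

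**Figure D4:**
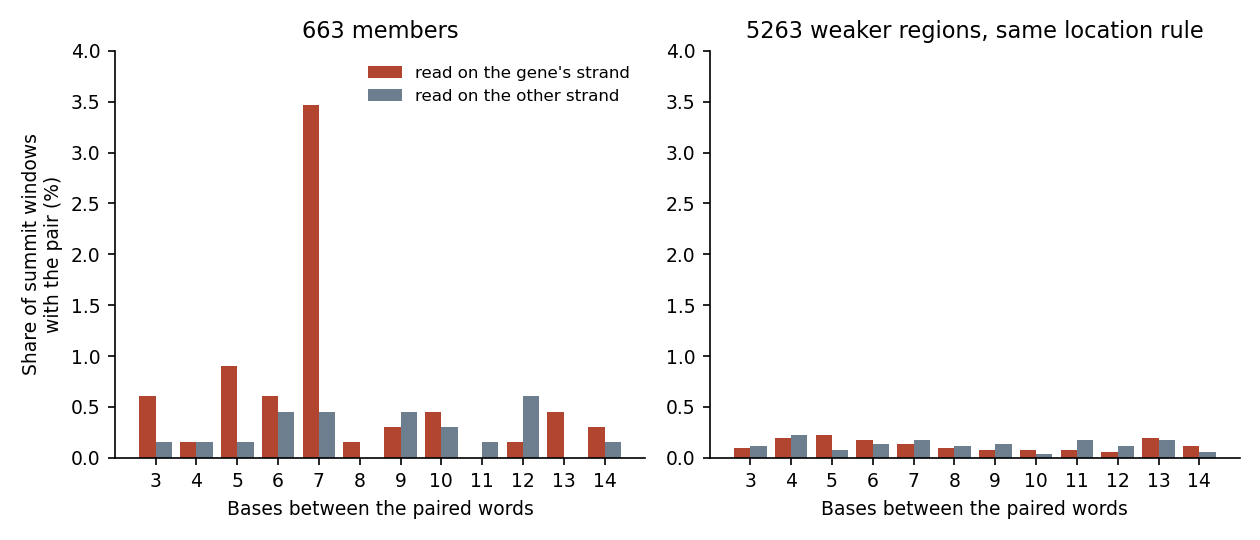
Share of summit windows (50 bases on each side) (vertical, %) that hold GTGC and then TTGC, by the number of bases between them (horizontal), for the 663 strong promoter regions on the left and the 5263 weaker ones on the right; bars to the left in each pair are read on the strand of the gene. A spacing of 7 bases stands alone, with 23 strong windows on the gene's strand and 3 on the other.

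Genes that build, attach and specify body wall muscle were found among the strong promoters. Of the genes in 4 muscle lists, 62 had a promoter region of this location at any rank, and 26 of these (41.9%) had a strong one, beside 14.1% of all 4475 genes with such a region. They held 33 strong regions with a median signal of 85.9 and a range of 60.2 to 177, near the median of 76.1 over all strong promoters. Of the 33, 23 were among the 3000 strongest of replicate 1, 27 among those of replicate 2, 19 among both, and those of unc-120 and unc-52 among neither. The lists were drawn up with earlier results of these data known, so the counts are a description. Where 3 values are given they are the signal in the pooled list, in replicate 1 and in replicate 2, in that order, and scores of different lists are not on a common scale.

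Among genes of the sarcomere, the contractile unit of muscle, 8 of 16 with a promoter region had a strong one. The region of unc-15, which encodes paramyosin of the thick filament, had 177 pooled, 54.98 in replicate 1 and 124 in replicate 2. The region of mlc-3, encoding an essential myosin light chain, had 134, 35.4 and 92.1, with its summit 38 bp from the 5′ end. The region of act-3, an actin gene, had 99.9, 35.6 and 63.0, and that of the related act-1 had 98.0, 54.1 and 56.6. The region of unc-54, encoding the major myosin heavy chain, had 85.9, 21.3 and 62.7, and ranked 10262 in replicate 1 but 824 in replicate 2. The tropomyosin gene lev-11 had 80.2, 17.2 and 62.7, and likewise ranked 17933 and 820. The giant kinase gene unc-89 had 91.2, 29.5 and 63.9, and the calponin-like gene cpn-3 had 66.3, 25.2 and 43.6. Only unc-15 and mlc-3 of this list were on the optimal list.

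Among genes that attach sarcomeres to the membrane and matrix, 10 of 18 had a strong region. The region of unc-112, which encodes the integrin activator kindlin, had 173 pooled, 52.0 in replicate 1 and 123 in replicate 2. The region of rsu-1, encoding a partner of the dense body complex, had 130, 35.1 and 95.1. That of unc-23, encoding a co-chaperone needed to keep muscle attached, had 125, 51.1 and 69.9, and that of zyx-1, encoding zyxin, had 119, 54.5 and 65.4. The talin gene tln-1 had 107, 39.7 and 66.9. These 5 were on the optimal list. The beta integrin gene pat-3 had 80.9, 30.3 and 68.9, and the integrin-linked kinase gene pat-4 had 65.5, 17.7 and 59.6. The alpha-actinin gene atn-1 had 62.7, 38.4 and 28.2, the spectraplakin gene vab-10 had 61.2, 34.2 and 29.1, and the perlecan gene unc-52 had 60.9, 25.2 and 33.3. The region of pat-4 ranked 16783 in replicate 1 and 937 in replicate 2, while those of atn-1 and vab-10 ranked 8136 and 7377 in replicate 2 and 1164 and 1835 in replicate 1.

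The summit sequences of 3 attachment genes are printed, since they show that the leading words are not shared by all muscle promoters. They follow the same form as the lines above.
unc-112 (chrV:14697105-14697205, - strand): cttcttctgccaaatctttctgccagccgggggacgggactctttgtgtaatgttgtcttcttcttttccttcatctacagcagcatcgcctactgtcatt
rsu-1 (chrIII:3471574-3471674, + strand): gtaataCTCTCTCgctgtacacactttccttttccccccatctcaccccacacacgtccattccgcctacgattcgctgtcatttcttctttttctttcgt
unc-23 (chrV:8936242-8936342, + strand): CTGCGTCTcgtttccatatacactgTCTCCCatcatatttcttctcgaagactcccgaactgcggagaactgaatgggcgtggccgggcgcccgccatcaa

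The line for unc-112 holds no leading word, that for rsu-1 holds a CT repeat, and that for unc-23 opens with the joined word on the other strand and holds TCTCCC further on.

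Among genes of excitability and calcium handling, 3 of 16 had a strong region, a share of 18.8% that lies near the 14.1% of all genes. The acetylcholine receptor subunit gene unc-29 had 102, with 40.1 in replicate 1 and 60.9 in replicate 2. The calcium channel subunit gene unc-36 had 98.7, with 33.0 and 70.1. The gene of the sarcoplasmic calcium pump, sca-1, had 3 strong regions, at 90.9, 69.6 and 62.4 in the pooled list. The first and the last overlapped the same replicate regions, with 33.8 in replicate 1 and 65.2 in replicate 2, and the other had 40.7 and 46.8.

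Among myogenic and mesodermal factors, 5 of 12 had a strong region. The homeodomain partner genes unc-62 and ceh-20, of the Meis and Pbx families, had 118, 43.2 and 73.9, and 106, 32.2 and 71.7. The gene of the worm's MyoD homologue, hlh-1, had 93.8 pooled, 41.3 in replicate 1 and 70.3 in replicate 2, with its summit 109 bp from the 5′ end. The Wnt pathway factor gene pop-1 had 71.7, 25.4 and 49.1, and unc-120, encoding a serum response factor homologue, had 62.7 with 24.9 and 36.6 in the replicates.

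**Figure D5:**
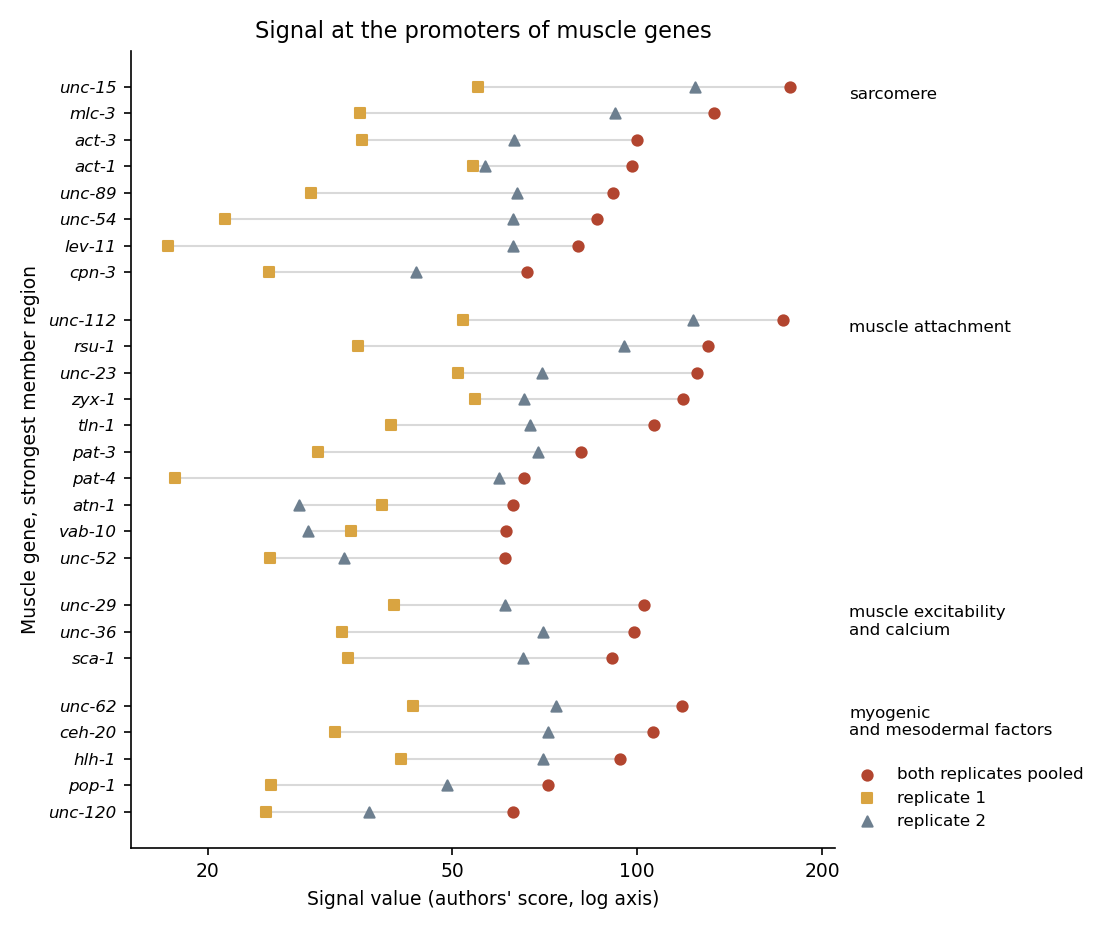
Signal value (horizontal, log axis) of the strongest promoter region of each of 26 muscle genes (vertical, in 4 blocks by list) in the pooled list (circles), replicate 1 (squares) and replicate 2 (triangles). Within the sarcomere block unc-15 is highest with 177 pooled; in replicate 1 the values of lev-11 (17.2), pat-4 (17.7) and unc-54 (21.3) lie far to the left of their replicate 2 values.

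Lists of other tissues had few genes with a promoter region of this location, so their counts are small. For intestine, 0 of 4 genes with a promoter region had a strong one, which allows up to 75% at 3 counts, and for pan-neuronal genes 0 of 8, which allows up to 37.5%. For hypodermis the count was 1 of 6, vab-10, which is also in the attachment list. For pharynx it was 1 of 2, pha-4, the organ's FoxA factor, at 82.5, and for germline 1 of 7, mes-2, a Polycomb methyltransferase, at 92.1, with 24.1 in replicate 1 and 61.4 in replicate 2. For the cell cycle it was 3 of 9, with cki-1 at 74.6, pcn-1 at 65.5 and mcm-4 at 62.5. With so few genes in each of these lists, no difference from the 14.1% of all genes was tested, and none is read from the counts. The basement membrane list had 5 of 9, with ost-1 at 280, sax-7, a cell adhesion molecule, at 94.3, the laminin genes epi-1 and lam-1 at 63.3 and 62.7, and unc-52, which is shared with the attachment list. The region of epi-1 ranked 1653 in replicate 1 and 13119 in replicate 2, while that of lam-1 ranked 14582 and 2245.

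Name classes, which group genes by the start of their symbol, were counted in the same way. Of 25 genes with a promoter region and a symbol of cytoplasmic ribosomal proteins, 9 (36%) had a strong one. They were headed by rpl-3, rpl-35, rpl-24.2 at 126 and rps-11 at 105. The count includes rpl-24.2 by its prefix, and RefSeq lists its product as a putative ribosome biogenesis protein. Of 15 chaperone genes 6 had one (40%), headed by hsp-1, dnj-19 at 145 and dnj-9 at 124. Of 32 chromatin factor genes 10 had one (31.3%), headed by swsn-3, cbp-1, set-18 at 204 and swsn-7 at 146. Of 14 respiratory chain genes 4 had one (28.6%), namely cox-5B at 211, cox-5A at 128, nuo-2 at 109 and cyc-1 at 105. The median best rank over this class was 18950.5, beside 12042 over all genes with a promoter region. Of 14 nuclear pore and transport genes 3 had one (21.4%), namely imb-3, npp-8 and npp-19 at 107. The strong regions of both classes were all on the optimal list, beside 21.1% of all strong regions, but they are few. Proteasome subunits had 3 of 7, with rpn-11 at 73.7, rpn-13 at 73.4 and pas-5 at 59.9, where rpn-11 ranked 10534 in replicate 1 and 1083 in replicate 2, and rpn-13 ranked 22977 and 963.

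Translation factors and tRNA synthetases had 6 of 26 (23.1%), headed by eif-3.C, eif-3.B at 86.3 and kars-1 at 83.9. The region of eif-3.B ranked 10592 in replicate 1 and 852 in replicate 2. Kinases named for their family had 5 of 16, headed by kin-1, a catalytic subunit of protein kinase A, at 102. Tubulins and motors had 3 of 16, with the tubulin gene tba-2 at 126, klp-7 at 84.1 and tbb-2 at 66.9. Homeobox ceh genes had 3 of 15, namely ceh-20, ceh-13 at 88.5 and ceh-53 at 73.1. Zinc finger and other factor classes had 9 of 47 by symbol, headed by hlh-11 at 123 and hlh-1; the count includes zipt-9, a transporter caught by its prefix.

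Other name classes had smaller shares of genes with a strong region. Chemoreceptors had 3 strong promoters of 119 with a region (2.52%), those of srh-2, sri-10 and sri-71. Cuticle collagens had 2 of 44 (4.55%), dpy-17 and col-63, C-type lectins 1 of 37, clec-113, and neuropeptides 1 of 23, nlp-81. Nuclear hormone receptors had 5 of 61 (8.20%), headed by nhr-119. RNA polymerase and general transcription factors had 1 of 31, and that gene, sptl-1, was caught by its prefix alone and encodes a serine palmitoyltransferase. Counts nearer the share of all genes were those of ubiquitin conjugation and ligase subunits, 10 of 73, splicing and RNA-binding proteins, 4 of 36, small GTPases and their regulators, 4 of 27, and solute carriers and transporters, 3 of 19. Mitochondrial ribosomal proteins and histones each had 2 of 14, and the vacuolar ATPase had 1 of 8. Genes known by a sequence name alone had 180 of 1799 (10.01%), beside the 14.1% of all genes.

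For 31 genes more than 1 strong region was assigned: 28 had 2 and 3 had 3. The genes with 3 were sca-1, nurf-1, a subunit of the nucleosome remodelling factor NURF, and mnk-1, a kinase that acts downstream of MAP kinases. The regions of nurf-1 scored 89.9, 87.3 and 71.4 in the pooled list, and those of mnk-1 scored 78.5, 67.6 and 64.3. The highest of each ranked low in replicate 1 and high in replicate 2, at 20342 and 506 for nurf-1 and at 11205 and 1129 for mnk-1. Among the genes with 2 were the muscle genes act-3, rsu-1, tln-1, unc-23 and unc-62. In 15 genes the regions overlapped each other, so they count 1 stretch more than once. For tln-1, where the first lay 875 bp upstream of the nearest 5′ end and the second much closer to one, they scored 107 and 76.8, and the second ranked 14445 in replicate 1 and 1279 in replicate 2. Both regions of rsu-1, at 130 and 60.2, overlapped the same replicate regions, with 35.1 in replicate 1 and 95.1 in replicate 2.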

How the data were processed

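The data were ChIP-seq region lists of 2 replicates of whole late embryos, on ce11. Per the deposited text files, the authors called regions on each replicate against a control, called the pooled list on both replicates together, and derived the optimal list from these by IDR. No source used here gives the aligner, caller or thresholds, and read depth is unknown. Column 7 is a score, the authors' deposited signal value, and column 9 a −log10 q-value as deposited, which was read but chose nothing.

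Summits were placed against Ensembl release 115 gene models (WBcel235, the same assembly), and sequence came from RefSeq. Regions were matched between lists by an overlap of at least 1 bp. Windows of 50 bases on each side of the summit, and of the points 200 bp away, were scanned for all six-base words on both strands. Gene symbols were matched to 11 lists and 26 name classes, and RefSeq product names were found for all 629 genes. Wilson 95% intervals cover counting error only. No test was made: 1 group with 2 replicates gives none, and regions are not replicates. Named are the 25 highest regions, list members, up to 4 leading members of a name class, genes with several regions, those at the edge of the set, the widest replicate gaps and the leading words. The set and lists were chosen with earlier results of these data known. The spaced pair, its second copy, the longer words and the count of TTGCAA in narrow regions were added after seeing the data. Some results are not reported here, among them 1 name class. The scripts were tested on simulated regions and planted words. Python 3.11.15, NumPy 2.4.6, pandas 2.3.3, SciPy 1.17.1 and matplotlib 3.10.9 were used.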

Additional observations from a re-analysis of the deposited data

How the results depend on the processing

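Of 106 recomputed values, 67 stayed within 1.5 times the reported count or inside its 95% interval, and 39 moved. No paired analysis was possible because the 2 samples form 1 group and no test was made. Taking the 1500 strongest regions gave 338 regions of 323 genes, summit GC of 48.5%, distance 272.5 bp, 42.9% overlapping an optimal region (22.3% in the reported set, where overlap and not identity is counted), ACGCGC in 13.9% and the spaced pair in 6.80%. Taking only as many as the optimal list holds gave 140 regions of 137 genes, summit GC of 50.5%, flank GC of 35.9%, distance 267.5 bp, overlap of 100%, GACGCA in 18.6%, ACGCGC in 18.6%, the pair in 12.9%, and 10 muscle genes. Leaving out either replicate gave 669 to 681 regions, 624 to 645 genes, summit GC of 43.6 to 46.5%, flank GC of 36.6 to 38.6%, distances of 293 to 381 bp, overlap of 21.6 to 22.1%, GAGAGA in 17.9 to 23.3%, GACGCA in 10.01 to 13.2%, ACGCGC in 8.07 to 10.4%, the pair in 2.54 to 3.52% and 19 to 26 muscle genes; the lower summit GC, the farther summits and the lower word shares all came from the 3000 strongest regions of replicate 1 alone. A limit of 500 bp gave flank GC of 36.1%, distance 198 bp, overlap of 27.03%, GAGAGA in 21.3%, GACGCA in 16.8%, ACGCGC in 14.1% and the pair in 6.67%. A 51 bp window gave summit GC of 49.02%, GAGAGA in 11.9%, GACGCA in 8.90% and ACGCGC in 7.54%, and a window of 100 bases on each side gave summit GC of 43.8%, GAGAGA in 38.6%, GACGCA in 21.1% and ACGCGC in 15.4%; a wider window has more room for a word. The gene record's 5′ end, a small RNA distance of 500 bp, flanks at 300 bp and, both added after seeing the data, 1 region a gene and leaving out copied windows moved none of the values recomputed under them. Depth is unknown, so the precision of a single score cannot be given.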
